A study of Mus musculus with 28 samples.

Results

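Oxidative phosphorylation is the last stage of aerobic energy metabolism. Complexes I and II pass electrons from NADH and succinate to ubiquinone, complex III passes them on to cytochrome c, complex IV passes them to oxygen, and complex V, the ATP synthase, uses the proton gradient that complexes I, III and IV build. Most subunits are encoded in the nucleus and imported, a few core subunits of every complex but complex II are encoded by the mitochondrial genome, and neurons draw most of their ATP from this pathway. The genes described here are the subunits of these 5 complexes, chosen by symbol: Ndufa, Ndufb, Ndufc, Ndufs and Ndufv genes, Sdha to Sdhd, Uqcr genes, Cox4i, Cox5, Cox6, Cox7 and Cox8 genes, Atp5 genes, and the mt-Nd, mt-Cytb, mt-Co and mt-Atp genes. Of 102 genes with such symbols, 100 were listed for both batches of mice and 94 of these had a mean of at least 10 counts, out of 16266 genes that passed the same filter. These 94 are 81 nuclear and 13 mitochondrial genes. Complex I had 37 nuclear and 7 mitochondrial members, complex II had 4 nuclear members, complex III had 8 and 1, complex IV had 16 and 3, and complex V had 16 and 2. Ndufa4 was placed in complex IV, where its protein resides, and Ndufa4l2, its relative, was left with complex I by its symbol.

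RNA came from amygdala micropunches of 28 adult female C57BL/6J mice (an inbred strain known to drink ethanol readily). The punches were aimed at the central and basolateral nuclei, and the drinking mice had ethanol and water in their home cages until the tissue was taken. The 10 Water mice had water alone, the 9 Acute mice had a single access to 20% ethanol beside water after a period on water, and the 9 Chronic mice had 20% ethanol beside water on alternating days over weeks. No genotype differed between groups. Of the Water, Acute and Chronic mice, 4, 4 and 3 belonged to the first batch and 6, 5 and 6 to the second. Total counts ran from 20004380 to 22569562 per mouse. The 13 mitochondrial genes took 7.08% to 10.9% of the counts of a mouse, and the 81 nuclear genes took 0.629% to 0.755%. Among markers of the tissue, Snap25, a synaptic protein of neurons, stood at 1372 to 1907 CPM (the usual counts scaled to library size) in every mouse, and the amygdala marker Lypd1 at 448 to 1090.

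The study compared each drinking group with Water, and each gene was tested here in a single edgeR quasi-likelihood model of the 28 mice that held batch as a covariate. A gene is called when its p, adjusted over all 16266 genes by the Benjamini-Hochberg method, is under 0.05. Levels are given in CPM, and levels of different genes are compared only as CPM per kilobase of transcript (RPKM). No subunit was called in any comparison, so each difference below is given as a value and none as a rise or fall. In bulk RNA a lower level can come from fewer cells of a type or from less RNA per cell, and these cannot be told apart.

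The nuclear subunits lie on 19 chromosomes and share features that their choice did not use. Their transcripts had a median length of 763 bases, against 2802 over all genes tested, with a median of 51.3% GC against 49.9%. Upstream windows of 300 bases, from 250 before to 50 after the start of transcription, were found in RefSeq (GRCm38.p6) for 64 of the 81 nuclear members. On either strand, the letters of nuclear respiratory factor 1 (NRF1), a regulator of respiratory genes, which are GCGCA, any base and GCGC, occurred in 16 of these 64 windows (25%), against 4.78% of all 27025 windows. The letters CCGGAAG of ETS factors such as GABP occurred in 13 (20.3%, against 9.12%), AANATGGCG of YY1 in 8 (12.5%, against 2.51%) and AAGGTCA of the estrogen-related receptors in 8 (12.5%, against 4.66%). At least 1 of these 4 was present in 51.6% of the members' windows and 18.9% of all windows. The general promoter letters differed less, with GGGCGG of Sp1 in 40.6% against 35.9%, CCAAT in 40.6% against 37.9% and TATAAA in 9.38% against 14.2%. None of the 7 strings contains another.

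The 150 bases before the start are shown for 1 nuclear gene of each complex, the gene with the smallest p in Acute against Water among those with a match in this stretch, to show how the letters lie in front of these genes. Capitals mark NRF1 or ETS letters in the gene's strand, 5′ to 3′, where the ETS letters of Uqcrh and Cox6a1 lie on the other strand and so appear as their reverse complement CTTCCGG, and the YY1 and estrogen-related receptor letters do not occur in these stretches. Sdha holds the NRF1 letters at 3 places that begin 98, 55 and 10 bases before the start, Cox6a1 holds NRF1 and ETS letters, Atp5k holds NRF1 letters, and Ndufs3 and Uqcrh hold ETS letters. A match to these letters does not show that a factor binds there.
Ndufs3 (complex I), chr2:90904722-90904871, minus strand: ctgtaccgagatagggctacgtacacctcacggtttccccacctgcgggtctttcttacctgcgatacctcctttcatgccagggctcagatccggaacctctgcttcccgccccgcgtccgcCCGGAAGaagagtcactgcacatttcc
Sdha (complex II), chr13:74350241-74350390, minus strand: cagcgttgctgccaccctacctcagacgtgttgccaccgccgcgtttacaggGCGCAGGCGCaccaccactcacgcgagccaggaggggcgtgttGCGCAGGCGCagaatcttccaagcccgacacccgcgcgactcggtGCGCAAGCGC
Uqcrh (complex III), chr4:116075071-116075220, minus strand: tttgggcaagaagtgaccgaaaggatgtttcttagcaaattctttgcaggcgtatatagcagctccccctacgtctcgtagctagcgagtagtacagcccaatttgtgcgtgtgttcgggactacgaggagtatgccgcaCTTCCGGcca
Cox6a1 (complex IV), chr5:115348959-115349108, minus strand: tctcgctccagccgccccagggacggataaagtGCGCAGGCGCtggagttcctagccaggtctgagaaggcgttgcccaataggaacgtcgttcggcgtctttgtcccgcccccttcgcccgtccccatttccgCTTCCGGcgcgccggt
Atp5k (complex V), chr5:108434400-108434549, minus strand: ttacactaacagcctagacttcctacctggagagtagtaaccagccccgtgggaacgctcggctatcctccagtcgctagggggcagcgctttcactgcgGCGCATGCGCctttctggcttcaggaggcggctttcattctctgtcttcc

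In Water mice the mitochondrial genes stood far above the nuclear ones at each of the 4 complexes that hold both. Their median level was 6839 RPKM, with a range from 1988 in mt-Nd3 to 15181 in mt-Co1, the core subunit that holds the oxygen-binding site of complex IV. The median is the value of mt-Co2, which with mt-Nd3 differed between the batches as given below, so both are uncertain. The level of mt-Co1 is uncertain too, as much of its sequence recurs in other genes. The nuclear subunits had a median of 61.6 RPKM and a range from 1.13 to 456.7, against a median of 6.38 RPKM over all genes tested. The order of the nuclear medians was complex V (107.7 RPKM), complex IV (106.5), complex III (91.9), complex I (48.9) and complex II (48.6). The differences between these medians were not tested.

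**Figure D1:**
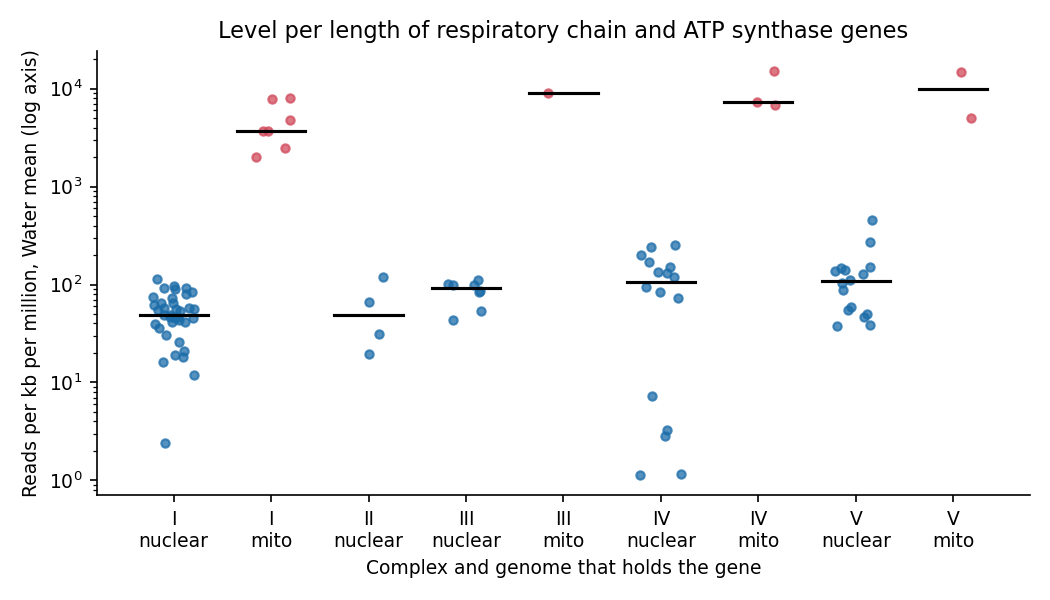
Level per length of each subunit gene in Water mice (RPKM, mean over 10 mice, log axis) by complex and by the genome that holds the gene, with blue points for nuclear and red points for mitochondrial genes and black bars for medians. The 13 mitochondrial genes lie between 1988 and 15181, above all 81 nuclear genes, and a few low points in complexes I and IV are the tissue-restricted forms.

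Among nuclear subunits, the highest in complex I was Ndufb9 (113.0 ± 8.53 RPKM; SD, n = 10), in complex II Sdha (118.8 ± 5.53) above Sdhc (19.7 ± 2.49), and in complex III Uqcrb (111.1 ± 3.98) above Uqcrfs1 (43.4 ± 4.44). Within complex V, Atp5b and Atp5a1, the beta and alpha subunits of the catalytic head, were the highest nuclear subunits of any complex, at 456.7 ± 18.2 and 272.1 ± 19 RPKM (SD, n = 10). Several complex IV and V subunits are encoded by families of alternative genes, and their levels were far apart. Cox4i1 stood at 243.8 ± 25.3 RPKM and its lung-type relative Cox4i2 at 1.13 ± 0.228. Cox6a1 stood at 252.3 ± 20.3 RPKM and its heart and muscle form Cox6a2 at 7.27 ± 1.29. Cox6b1 was at 171.4 ± 19.7 RPKM and its testis form Cox6b2 at 3.26 ± 1.78. Cox7a2 and Cox7a2l, at 93.9 ± 10.5 and 84.3 ± 6.61 RPKM, differed by less than the SD of Cox7a2, and the muscle form Cox7a1 was at 1.15 ± 0.382. Cox7b stood at 73.6 ± 8.38 RPKM. Cox7a1 was also the member nearest the filter, at a mean of 10.1 counts, and just outside it lay a second annotated Atp5o gene (6.43 counts), Cox7b2 (2.75) and Cox8c, which had no count in any mouse. The muscle form Cox8b was at 2.86 ± 2.73 RPKM, and Ndufa4l2 was at 2.42 ± 0.347 RPKM beside 201.2 ± 27.1 for Ndufa4. Of 6 muscle markers, Ckm and Actc1 averaged 2.82 and 3.43 counts and did not pass the filter. The other 4 passed, and their summed level was 46.2 to 69.8 CPM in Water mice. Of the 3 genes for the c subunit of the ATP synthase ring, Atp5g3 stood at 152.6 ± 13.1 RPKM and Atp5g1 at 39.0 ± 5.21, while Atp5g2 differed between the batches as described next.

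The batches were deposited as separate tables, and 6 members differed by 0.96 or more on the log2 scale between Water mice of the 2 batches. Ndufv3, a small subunit of complex I, ran from 0.318 to 0.892 CPM in the 4 Water mice of the first batch and from 39.0 to 44.6 CPM in the 6 of the second. mt-Co2, which carries a copper centre of complex IV, ran the other way, from 9352 to 10151 CPM in the first batch and from 1013 to 1556 CPM in the second. mt-Co3, Cox7c, Cox8b and Atp5g2 were also lower in the second batch, by 0.96, 1.01, 1.86 and 2.62 on the log2 scale. For mt-Co2, mt-Co3, Atp5g2 and Cox7c, and for mt-Nd3, an annotated nuclear pseudogene with shared sequence differed between batches in the opposite direction. For Cox7c this was Gm12338, which shares 14.0% of its stretches of 31 bases and averaged 2.41 CPM in the first and 20.0 CPM in the second batch, beside 103.4 and 52.1 CPM for Cox7c. Another pseudogene, Gm10012, shares 19.3% of its stretches and went the same way as Cox7c, from 2.96 to 0.042 CPM. The transcript of mt-Co2 shares 99.5% of its stretches of 31 bases with Gm28661, an unprocessed pseudogene on chromosome 1, and mt-Co3 shares 99.9% with Gm28437 and mt-Nd3 98.1% with Gm28438 on the same chromosome. With its copies added, mt-Co2 gave 10003 ± 376 CPM (SD, n = 4, CPM of the total count) in Water mice of the first batch and 10036 ± 279 (n = 6) in those of the second. The sums for mt-Co3 were 8126 ± 378 and 8256 ± 331 CPM, and those for mt-Nd3 were 906.2 ± 53.9 and 967.0 ± 19.7 CPM. Atp5g2 with Gm10175, a pseudogene on chromosome 7 that shares 37.5% of its stretches, gave 59.0 ± 3.24 and 60.1 ± 3.91 CPM. The sums of mt-Co2, mt-Co3 and Atp5g2 therefore differed between batches by less than their SD, while each gene alone did not. Most reads of mt-Co2, mt-Co3 and mt-Nd3 cannot be told from those of their copies, so their separate levels are uncertain, and the same holds for Ndufb4c, an annotated pseudogene whose whole sequence recurs in Ndufb4. Of the stretches of mt-Atp6, mt-Nd4l, mt-Co1 and mt-Nd4, 99.5%, 98.9%, 63.9% and 62.8% recur in other genes, so their levels are uncertain too. Shared sequence covers only a part of Atp5g2, Cox7c and Ndufb4, at 40.2%, 24.5% and 19.1% of their stretches. No copy was found for Ndufv3 that would hold its reads in the first batch, and what sets its level there was not tested.

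**Figure D2:**
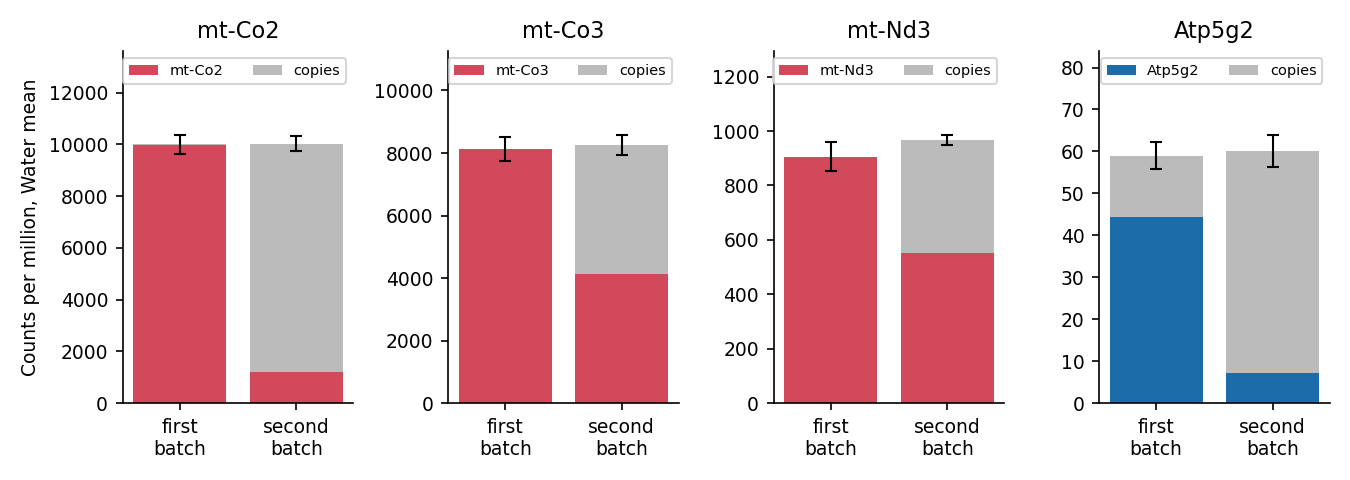
CPM (of the total count, linear axis from 0) of mt-Co2, mt-Co3, mt-Nd3 and Atp5g2 in Water mice of each batch (coloured bars, mean of 4 and 6 mice) with annotated pseudogenes of shared sequence stacked on top in grey, and error bars for the SD of the sum. The gene alone differs between batches, as in mt-Co2 with 9996 and 1208, while the stacked sums, 10003 and 10036, are close.

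In Acute against Water, 72 of the 81 nuclear subunits had a log2 fold change above 0, where 50.6% of all genes did, and the median was 0.05, against 0.0011 over all genes. With offsets for the GC content and length of each gene the median was 0.04, against 0.0052 over all genes, with 64 of 81 above 0. The differences were small for each gene, between -0.21 and 0.16. At an unadjusted p under 0.05, 13 of the 94 members were higher and 0 lower, beside 5.07% and 4.45% of all genes. All 13 were nuclear, with 6 in complex I, 1 in complex II, 2 in complex III, 0 in complex IV and 4 in complex V. The count of 13 was 8 without Water mouse 4 or without Water mouse 6, and 26 without Acute mouse 5. At the adjusted threshold edgeR called 0 of the 94 (0.0% of all genes were called), DESeq2 with batch as a covariate also called 0 (0.0553% of all genes), and ComBat-seq followed by DESeq2, the route of the study, called 1, Ndufa10 (0.184% of all genes). By complex, the nuclear medians were 0.05 for complex I (34 of 37 above 0), 0.06 for complex II (4 of 4), 0.07 for complex III (7 of 8), 0.03 for complex IV (11 of 16) and 0.06 for complex V (16 of 16).

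Ndufa10, an accessory subunit of complex I in the membrane-arm region, had the smallest p of any member. Its level ran from 110 to 117 CPM in Water mice (median 112), from 115 to 129 in Acute mice (median 120) and from 111 to 124 in Chronic mice (median 115). The Acute and Water mice overlapped between 115 and 117 CPM, and 9 of 9 Acute mice lay above the Water mean of their batch. The log2 fold change was 0.10 ± 0.027 (SE), with an edgeR adjusted p of 0.299 and an exact permutation p of 0.00025 for this gene alone, which had been named for its small p. Under ComBat-seq and DESeq2 it was 0.10 with an adjusted p of 0.0484.

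Other subunits of complex I lay in the same direction. Ndufs7, an iron-sulfur subunit, ran from 31.4 to 60.7 CPM in Water and from 39.8 to 59.2 in Acute mice (log2 fold change 0.12 ± 0.047, edgeR adjusted p = 0.462). Its first-batch Acute mice, at 39.8 to 43.2 CPM, all lay above the first-batch Water mice, at 31.4 to 37.4, whereas the second-batch mice overlapped. Ndufv2, Ndufa6 and Ndufa13 followed, at 0.10, 0.14 and 0.11, each also under an unadjusted p of 0.05. Ndufb2 and Ndufa7 were among the 3 members of nuclear complex I below 0, at -0.04 and -0.03.

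In complex II, which is also the succinate dehydrogenase of the citric acid cycle, all 4 subunits were above 0. Sdhb, its iron-sulfur subunit, ran from 67.0 to 83.3 CPM in Water (median 74.7) and from 73.5 to 86.8 in Acute mice (median 81.0). The groups overlapped, 8 of 9 Acute mice lay above the Water mean of their batch, and the log2 fold change was 0.12 ± 0.040 (edgeR adjusted p = 0.407). Sdha, the flavoprotein, had a log2 fold change of 0.04 ± 0.023, Sdhc 0.07 ± 0.043 and Sdhd 0.05 ± 0.037, the latter pair being the membrane anchors.

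In complex III, Uqcrc1, a core protein, ran from 144 to 180 CPM in Water (median 166). Acute mice lay at 157 to 191 (median 176) and Chronic mice at 145 to 196 (median 179). Its levels differed by batch in Water mice, and 9 of 9 Acute mice lay above the Water mean of their own batch. The log2 fold change was 0.11 ± 0.034, with an edgeR adjusted p of 0.384 and an exact permutation p of 0.0016 for this gene alone, likewise named for its p in the same mice. Uqcrfs1, the Rieske iron-sulfur protein, gave 0.10 ± 0.043 (edgeR adjusted p = 0.485), with 9 of 9 Acute mice above the Water mean of their batch. Uqcr10, a small subunit, gave 0.16 ± 0.079 and ran from 26.1 to 45.2 CPM in Water mice.

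Nuclear complex IV had no member with an unadjusted p under 0.05 in Acute against Water. Its smallest p-values belonged to Cox7a2l, which takes part in supercomplexes, Cox5a and Cox7a2, at log2 fold changes of 0.08 ± 0.043, 0.07 ± 0.041 and 0.07 ± 0.043 (edgeR adjusted p of 0.588, 0.597 and 0.601). The low forms Cox6b2, Cox8b and Cox7a1, at -0.17, -0.21 and -0.05, made up most of its 5 members below 0, and each varied widely, with an SD within batch and group of 0.70, 1.48 and 0.47 on the log2 scale.

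All 16 nuclear complex V subunits were above 0. Atp5b ran from 812 to 941 CPM in Water (median 878) and from 882 to 997 in Acute mice (median 907), and the log2 fold change was 0.07 ± 0.029 (edgeR adjusted p = 0.494). Within the second batch the 5 Acute mice, at 891 to 910 CPM, overlapped with the 6 Water mice, at 812 to 899. Atp5a1 gave 0.06 ± 0.026 (edgeR adjusted p = 0.501), Atp5c1, the rotor's gamma subunit, 0.07 ± 0.034 (0.502) and Atp5k, a small subunit of the membrane part, 0.12 ± 0.054 (0.493).

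**Figure D3:**
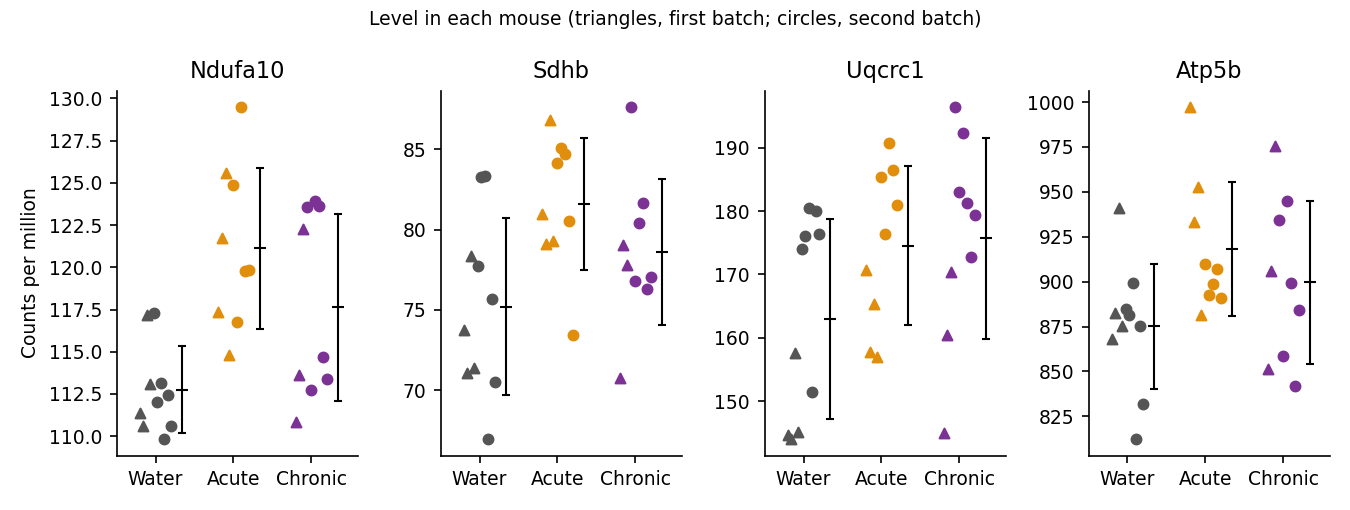
CPM of Ndufa10, Sdhb, Uqcrc1 and Atp5b (complexes I, II, III and V) in each mouse by group, with triangles for the first batch, circles for the second, and black marks with bars for the group mean and SD of 10 Water, 9 Acute and 9 Chronic mice; the axes do not start at 0. The groups overlap in all 4 genes, as in Ndufa10 with 110 to 117 in Water and 115 to 129 in Acute mice.

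In Chronic against Water, 74 of the 81 nuclear subunits were above 0, where 51.0% of all genes were, with a median of 0.05, against 0.0022 over all genes. With offsets for the GC content and length of each gene the median was 0.03, with 61 of 81 above 0. At an unadjusted p under 0.05, 9 members were higher and 0 lower, beside 4.81% and 5.65% of all genes. The count of 9 was 4 without Water mouse 4 or 6, 5 without Chronic mouse 1 or 4, and 15 without Chronic mouse 38 or Water mouse 2. At the adjusted threshold edgeR called 0 of the 94 members, where 0.0184% of all genes were called, and DESeq2 called 0 with batch as a covariate (0.234% of all genes) and 0 after ComBat-seq (0.54%). The nuclear medians were 0.05 for complex I (34 of 37 above 0), 0.03 for complex II (3 of 4), 0.05 for complex III (7 of 8), 0.06 for complex IV (15 of 16) and 0.05 for complex V (15 of 16). This comparison uses the same Water mice as the one above, so the values of the 2 comparisons are not independent.

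In this comparison Uqcrc1 had the smallest p of any member, with a log2 fold change of 0.10 ± 0.034 and an edgeR adjusted p of 0.292, and 8 of 9 Chronic mice lay above the Water mean of their batch. In complex I the smallest p-values belonged to 3 accessory subunits. Ndufb6 ran from 19.2 to 27.0 CPM in Water (median 23.9) and from 23.5 to 29.1 in Chronic mice (median 25.5), and the log2 fold change was 0.15 ± 0.056 (edgeR adjusted p = 0.329). Ndufb8 gave 0.14 ± 0.054 (0.355) and Ndufa8 gave 0.09 ± 0.036 (0.388). Ndufa10 gave 0.06 ± 0.027 (edgeR adjusted p = 0.434) and Ndufs7 gave 0.11 ± 0.047 (0.410). In complex IV, Cox6c was the only member with an unadjusted p under 0.05, at 0.09 ± 0.036 (edgeR adjusted p = 0.362), and Cox4i1, a regulatory subunit, gave 0.09 ± 0.056 (0.613). In complex V, Atp5d, the delta subunit of the head's stalk, gave 0.09 ± 0.037 (edgeR adjusted p = 0.399) and Atp5g3 gave 0.08 ± 0.045 (0.530). In complex II, Sdhb gave 0.06 and Sdhc 0.07, while Sdha and Sdhd were close to 0, at -0.0023 ± 0.023 and 0.0071 ± 0.037.

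**Figure D4:**
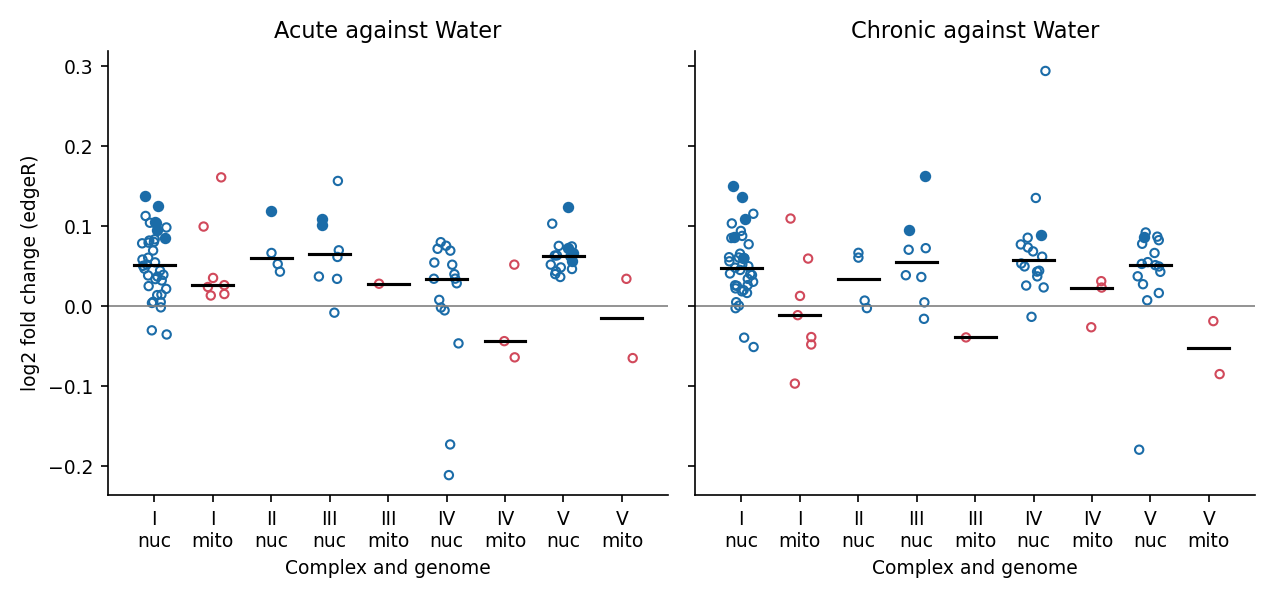
Log2 fold change of each subunit gene from edgeR in Acute and in Chronic against Water, by complex and genome (blue, nuclear; red, mitochondrial), with filled points for an unadjusted p under 0.05 and black bars for medians. Most nuclear points lie above 0 (72 and 74 of 81), the filled points, 13 and 9, all lie above 0, and the 13 mitochondrial points lie on both sides.

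None of the 13 mitochondrial genes was called, and their difference from the nuclear ones was not tested. In Acute against Water 10 of 13 were above 0 with a median of 0.03, and in Chronic against Water 5 of 13 with a median of -0.02. The Chronic median was 0.0052 with GC and length offsets (7 of 13 above 0) and 0.0058 without Chronic mouse 2 (7 of 13). By batch, the Acute median was 0.07 in the first (13 of 13 above 0) and -0.0078 in the second (6 of 13), and the Chronic median was -0.02 (3 of 13) and -0.03 (5 of 13). With near-identical copies added, 12 of 13 were above 0 in Acute and 5 of 13 in Chronic mice. No mitochondrial gene had an unadjusted p under 0.05 in either comparison. mt-Nd6, the only member on the light strand, stood at 0.16 ± 0.080 in Acute mice, and mt-Nd4l at -0.10 ± 0.053 in Chronic mice. mt-Nd3 stood at 0.10 in Acute and 0.11 in Chronic mice, and at 0.04 and 0.05 with the reads of its copy added, and its Chronic value ran from -0.09 to 0.22 over 13 other settings. mt-Nd6 ran from 1357 to 1491 CPM in first-batch Water mice and from 1692 to 1972 in first-batch Acute mice, without overlap, and from 992 to 1366 and from 1095 to 1324 in the second batch, with overlap. It lies opposite the end of mt-Nd5, and whether the counting used the strand is not given in the sources used here. The other mitochondrial complex I genes, mt-Nd1, mt-Nd2, mt-Nd4 and mt-Nd5, stood between 0.01 and 0.04 in Acute and between -0.05 and 0.01 in Chronic mice. mt-Cytb of complex III stood at 0.03 and -0.04, mt-Co1 at 0.05 and 0.03, mt-Co2 at -0.06 and 0.02 (0.02 and -0.0054 with its copies added), mt-Co3 at -0.04 and -0.03 (0.06 and 0.04 with its copy added), mt-Atp6 at 0.03 and -0.02 and mt-Atp8 at -0.06 and -0.08.

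Summed over genes, the nuclear subunits took 6851 ± 327 CPM in Water (SD, n = 10), 7127 ± 226 in Acute (n = 9) and 7079 ± 322 in Chronic mice (n = 9), with overlap between all groups. The mean log2 level of the nuclear members relative to Water of the same batch was 0.05 in both drinking groups, smaller than the SD of 0.074 between the Water mice. By batch it was 0.07 in the first and 0.04 in the second in Acute mice and 0.0040 and 0.08 in Chronic mice, and without Chronic mouse 1 the Chronic mean was 0.03. Their summed mitochondrial partners took 94081 to 101590 CPM in first-batch Water mice and 76664 to 86222 in those of the second. In the latter the pseudogene copies of mt-Co2, mt-Co3 and mt-Nd3 took a mean of 8828, 4129 and 414 CPM, against 6.80, 2.69 and 1.10 in the first. Copies of mt-Co1 took 4227 CPM against 3579 in the first, and that of mt-Atp6 took 141 against 153. After batch and group means were removed, the 76 nuclear members with a mean of at least 100 counts followed one another across the 28 mice with a median pairwise r of 0.49, the mitochondrial genes with 0.68, and nuclear with mitochondrial genes with 0.17. All genes of a mouse share its library and its normalization, so these correlations are descriptions.

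The batches did not give the same picture. In Acute against Water the nuclear median was 0.08 in the first batch (71 of 81 above 0) and 0.04 in the second (62 of 81). In Chronic against Water it was -0.01 in the first batch (39 of 81), which held 3 Chronic mice, and 0.08 in the second (74 of 81). The difference between batches was tested gene by gene as an interaction in edgeR. For Chronic against Water no member was called (lowest adjusted p = 0.774), and 13 of 94 had an unadjusted p under 0.05, beside 6.15% of all genes, with all 13 larger in the second batch. Among them were Uqcrh, a complex III hinge protein, at -0.15 in the first and 0.14 in the second batch, Ndufb4 at -0.16 and 0.11, Ndufb6 at -0.02 and 0.24, and Ndufa4 at -0.08 and 0.12. For Acute against Water no member was called (lowest adjusted p = 0.999), and 2 of 94 had an unadjusted p under 0.05, beside 4.13% of all genes. These were Uqcrb, at 0.13 and -0.04, and mt-Co3, at 0.12 and -0.17, the latter a gene whose reads are shared with its copy.

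**Figure D5:**
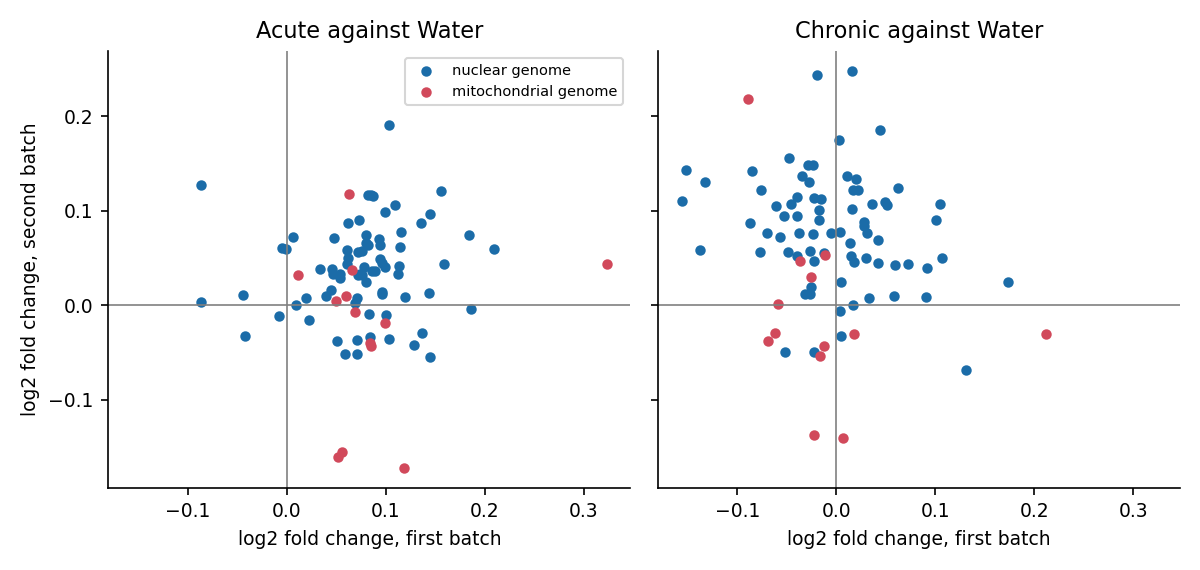
Log2 fold change of 88 subunit genes in the first batch (horizontal axis) against the second batch (vertical axis) for Acute and for Chronic against Water, with blue points for nuclear and red points for mitochondrial genes; the 6 genes with an SD within batch and group of 0.25 or more (log2) are left out. Blue points gather right of and above 0 for Acute mice, and for Chronic mice they spread to both sides of 0 in the first batch while lying mostly above 0 in the second.

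Chronic and Acute mice differed little when compared directly. No member was called by edgeR or by DESeq2 with either treatment of batch (0.0% of all genes were called by each), the nuclear median was -0.0040 and the mitochondrial median -0.02. At an unadjusted p under 0.05, 0 members were higher and 2 lower, beside 1.95% and 2.5% of all genes, and 37 of the 81 nuclear members were above 0, beside 49.4% of all genes. The 2 lower became 20 in the first batch alone, beside 2.39% of all genes there, 0 without Acute mouse 4, 6 without Chronic mouse 3, 5 without Acute mouse 2, 4 without Chronic mouse 1, and 1 without Acute mouse 3, 34 or 35 or Chronic mouse 2, 4, 37 or 38. The pair, named after their values were seen, were Atp5g2, at -0.28, and mt-Nd4l, at -0.12. With the reads of its copy added, Atp5g2 stood at -0.04 (edgeR adjusted p = 0.999), and mt-Nd4l, which shares 98.9% of its stretches with Gm10222, stayed at -0.12. In the first batch alone the nuclear median was -0.09, with 6 of 81 above 0, and in the second it was 0.05, with 61 of 81 above 0.

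Other genes of the pathway came from lists made with earlier results known, and their directions were mixed. Their counts stand beside 50.6% of all genes above 0, 5.07% higher and 4.45% lower at an unadjusted p under 0.05 in Acute mice, and 51.0%, 4.81% and 5.65% in Chronic mice. Cyc1, the cytochrome c1 subunit of complex III whose symbol lies outside the rule, gave 0.11 in Acute and 0.12 in Chronic against Water (edgeR adjusted p of 0.462 and 0.295). Cycs, cytochrome c itself, stood at 0.04 and -0.03. Of 16 genes of pyruvate dehydrogenase and the citric acid cycle, 16 were above 0 in Acute mice with a median of 0.04 (4 higher and 0 lower by unadjusted p). In Chronic mice 11 were above 0 with a median of 0.01 (0 and 0). Of 10 outer membrane channel and import genes, 9 were above 0 in Acute mice with a median of 0.05 (3 higher, 0 lower) and 7 in Chronic mice with a median of 0.04 (2 higher, 1 lower), and Vdac2, a channel of the outer membrane, stood at 0.06 and 0.05. Assembly factors, which build the complexes but are no part of them, had medians of 0.02 and 0.02 for complex I (16 genes), 0.08 and 0.04 for complex II (3), 0.02 and -0.01 for complex III (5), 0.04 and 0.01 for complex IV (20) and 0.06 and 0.06 for complex V (3), with 1 higher in each comparison, both in complex IV. The 15 genes that transcribe and maintain mitochondrial DNA had medians of -0.01 and -0.01 (1 higher and 0 lower, then 0 and 1), and the 2 mitochondrial ribosomal RNAs 0.02 and 0.03 (none under 0.05). The 11 regulators of nuclear respiratory genes had medians of -0.02 and -0.03, with 1 lower in each comparison, Ppargc1b, a coactivator of these genes, at -0.26 and -0.22 (edgeR adjusted p of 0.430 and 0.391).

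No cell type marker was called against Water, and several marker lists lay on opposite sides of 0 in the batches. The 10 neuron markers had medians of 0.04 in Acute and 0.03 in Chronic against Water, the 8 astrocyte markers -0.01 and -0.01, the 8 microglia markers 0.01 and -0.03, the 6 endothelial markers 0.01 and -0.02, and the 5 markers of oligodendrocyte precursors 8.4e-05 and 0.03. The 9 oligodendrocyte markers tested had medians of 0.12 and 0.05, with 0.35 in the first and -0.02 in the second batch in Acute mice and 0.33 (9 of 9 above 0) and -0.13 (0 of 9) in Chronic mice. Their summed level was 1276 to 3277 CPM in Water mice, 1662 to 3295 in Acute mice and 1854 to 3180 in Chronic mice. The 6 striatum markers had medians of 0.01 in Acute and -0.35 in Chronic mice, with 0 of 6 above 0 in Chronic mice and summed levels of 314 to 1214, 410 to 969 and 335 to 847 CPM. The 8 amygdala markers had medians of 0.13 and 0.03, and the 4 muscle markers tested 0.09 and 0.17. The muscle markers ran from -0.48 to 0.34 in Acute mice, with 2 of 4 higher and 0 lower by unadjusted p. In Chronic mice they ran from 0.05 to 0.29, with 0 higher and 0 lower. The 5 choroid plexus markers had medians of -0.08 in Acute mice (-0.50 in the first and 0.22 in the second batch) and -0.13 in Chronic mice (0.14 and -0.29), with summed levels from 12.5 to 4263 CPM over all mice. Tubb3, a neuronal tubulin, stood at 0.08 and 0.08, S100b of astrocytes at 0.13 and 0.14 and Ly6c1 of endothelium at 0.12 and 0.13, each with an unadjusted p under 0.05 in both comparisons. In those lists 7 and 6 of 10 neuron markers, 3 and 3 of 8 astrocyte markers and 4 and 3 of 6 endothelial markers were above 0 in Acute and Chronic mice. By unadjusted p, 2 and 1 neuron, 3 and 1 astrocyte and 1 and 2 endothelial markers were higher, beside 5.07% and 4.81% of all genes. Lower were 0 in Acute mice and 1 in Chronic mice, an astrocyte marker, beside 4.45% and 5.65% of all genes. The part of these markers in the values of the subunits was not tested.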

How the data were processed

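The authors quantified paired-end reads with Salmon 0.14.1 against GRCm38 transcripts and non-coding RNAs, summarized them by gene and deposited estimated counts, all whole numbers, separately by batch. Both batches were merged by Ensembl identifier (49477 shared, all in GENCODE release M21), and a mean of 10 counts over the 28 mice was required. Ndufs8 and Cox8a, listed for the second batch alone, are not members. The main test was edgeR 4.0.16 (R 4.3.3), TMM normalization, quasi-likelihood, batch as a covariate, all groups in the fit; SE is the log2 fold change divided by the root of F. Exact permutation tests, 2-sided, enumerated 32340 regroupings within batches on log2 CPM (prior count 2). RPKM used the length of the principal transcript. Of 55 pairs of mice of 1 group and batch none was a duplicated library. The same replicate number in different groups was not taken to pair the mice. In the second batch, 16 pairs of the same number had r from -0.35 to 0.34 (4 over 0.1). There 80 pairs of different numbers had r from -0.36 to 0.42 (26 over 0.1). Shared handling of mice was not tested. On simulated data for Acute against Water over 16266 genes, edgeR called 2% of genes changed by 0.1 (log2) and 74% of those changed by 0.5. The changed genes were drawn at random from all of these, so the shares are not those of the subunits. Of the members, 12 overlap a gene on their strand and 30 a gene on the other.

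Named genes were the 3 nuclear members of each complex with the smallest p in each comparison with Water, the mitochondrial genes, complex II, the alternative forms, the highest and lowest member of each complex, and genes of other lists under 0.05 in both comparisons; Atp5g2 and mt-Nd4l (Chronic against Acute), Uqcrb and mt-Co3, Ndufv3, Cox7c and Ndufb4c, and the other genes named beside a count or the batches were chosen after their values were seen. Of the genes this rule names, 1 is not reported here. Members and lists were chosen with earlier results of these data known. Alternatives were DESeq2 1.42.0 with batch, ComBat-seq (sva 3.50.0) then DESeq2, 2 other normalizations, other filters, the mitochondrial genome left out, each batch alone, a replicate block, GC and length offsets, only the groups compared, and 28 fits without 1 mouse; adding the reads of 11 near-identical pseudogenes to 9 members was chosen after seeing the data.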

Additional observations from a re-analysis of the deposited data

Results flagged for a closer look

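In 8 of 120 sets, the 9 or 10 mice of a group over both batches for each of 40 values, 1 mouse lay far from the others by Dixon's criterion, which chance gives in about 1 of 20 sets. The mouse was of the second batch in all 8. The values are log2 levels relative to Water mice of the same batch. Uqcrc1 in Water mouse 4 stood at -0.19, with the other Water mice at -0.04 to 0.09. Acute mouse 5 was lower than the other Acute mice in Cox7a2l, at -0.15 against 0.01 to 0.17, and in Cox5a, at -0.11 against 0.03 to 0.14. Chronic mouse 1 was higher in the mean over all members, at 0.18 against -0.03 to 0.06, and in the mean over nuclear members, at 0.20 against -0.03 to 0.08. Its nuclear mean was 0.44 in complex IV, which holds low and widely varying forms. In complexes I, II, III and V it was 0.16, 0.14, 0.18 and 0.11. Chronic mouse 2 was lower in mt-Nd4l, at -0.45 against -0.18 to 0.06, in mt-Cytb (the complex III mitochondrial mean), at -0.27 against -0.09 to 0.08, and in the mean of mt-Atp6 and mt-Atp8, at -0.43 against -0.12 to 0.13.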

How the results depend on the processing

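Among 14 other settings (1 of them, reads of near-identical copies added, chosen after seeing the data) and 28 fits without 1 mouse, only ComBat-seq with DESeq2 called a member (1 in Acute against Water: Ndufa10, 0.10). No named gene was called in another setting, and where values moved or changed sign the cause was not tested. Members higher in Acute against Water (13) numbered 1 in the second batch alone and 8 with the replicate block and GC and length offsets. Members higher in Chronic against Water (9) numbered 1 in the first and 16 in the second batch alone, 4 with the offsets and 5 with the block and offsets, and members lower (0) numbered 3 in the first batch alone and 1 with the replicate block. In Chronic against Acute, 4 were higher in the second batch alone (0 over both), and the 2 lower became 20 in the first batch alone, 5 by ComBat-seq with DESeq2, and 1 in the second batch alone, without the mitochondrial genome, with the offsets, with copies added and with only the groups compared. In the first batch alone the nuclear and mitochondrial medians of that comparison were -0.085 and -0.11.

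Among the nuclear genes named for their p, Atp5g2, Uqcrb, mt-Co3 and mt-Nd4l, signs changed as follows, on the log2 scale. In the first batch alone, Chronic against Water gave -0.020 for Ndufb6, 0.0040 for Sdha, -0.016 for Sdhc, -0.038 for Cox5a, -0.061 for Cox7a2, -0.029 for Cox4i1, -0.0051 for Atp5k, -0.022 for Atp5c1 and 0.0043 for Uqcrb, and Acute against Water gave 0.12 for mt-Co3. In the second batch alone, Acute against Water gave -0.010 for Cox6c and -0.042 for Uqcrb. With GC and length offsets, without and with the replicate block, Chronic against Water gave 0.010 and 0.010 for Sdha, -0.0060 and -0.0058 for Sdhd, -0.015 and -0.015 for Atp5k, -0.0051 and -0.0050 for Atp5a1, and 0.0021 and 0.0021 for Uqcrb, and with the block 0.00070 for mt-Co3. Sdha in Chronic mice gave 0.0039 without the mitochondrial genome and 0.0034 with no filter. With copies added, Atp5g2 in Chronic mice gave 0.046, and mt-Co3 gave 0.062 in Acute and 0.036 in Chronic mice. Of the other mitochondrial genes, mt-Co2 alone changed sign with copies added, to 0.016 in Acute and -0.0054 in Chronic mice, and with GC and length offsets mt-Nd5 and mt-Atp6 did in Chronic mice, to 0.023 and 0.0052. ComBat-seq with DESeq2 gave 0.012 for mt-Co3 in Acute mice. The replicate numbers were not taken to pair the mice, and the block changed no other call.

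Without 1 mouse at a time, members higher numbered 8 (without Water 4 or Water 6) to 26 (without Acute 5) in Acute against Water and 4 to 15 in Chronic against Water, members lower in Chronic against Water 0 to 1 (without Chronic 37 or Chronic 5), and members lower in Chronic against Acute 0 (without Acute 4) to 6 (without Chronic 3), with 5 without Acute 2, 4 without Chronic 1, and 1 without Acute 3, 34 or 35 or Chronic 2, 4, 37 or 38. Nuclear medians ran from 0.04 to 0.07 in Acute against Water, from 0.04 to 0.06 in Chronic against Water and from -0.02 to 0.01 in Chronic against Acute, and mitochondrial medians from 0.01 to 0.04, from -0.03 to 0.0058 and from -0.06 to -0.01. Sdha (-0.0125 to 0.0038), Sdhd (-0.0120 to 0.026) and mt-Co3 (-0.062 to 0.0187) in Chronic mice and mt-Nd4l in Acute mice (-0.0021 to 0.045) changed sign in some of these fits, as did, in 1 or 2 of 28, mt-Nd2 and mt-Nd5 in Acute and mt-Nd1, mt-Nd5, mt-Nd6, mt-Co2 and mt-Atp6 in Chronic mice.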

Other observations

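Ndufs8, an iron-sulfur subunit of complex I, and Cox8a, the usual form of that small complex IV subunit, were listed for the second batch alone and tested there among 16435 genes. Ndufs8 stood at 42.1 ± 5.33 CPM in Water (SD, n = 6), 44.4 ± 3.0 in Acute (n = 5) and 42.7 ± 2.24 in Chronic mice (n = 6), with log2 fold changes against Water of 0.08 and 0.02 (edgeR adjusted p of 0.935 and 0.931). Cox8a stood at 200.4 ± 19.3, 205.4 ± 12.8 and 212.0 ± 9.79 CPM, with log2 fold changes of 0.04 and 0.08 (edgeR adjusted p of 0.962 and 0.555).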
